A study of Mus musculus with 6 samples.

Results

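The genes described are 8 components of the circadian clock: Clock, Per1, Per2, Cry1, Cry2, Nr1d1, Nr1d2 and Dbp. They were chosen as the probe sets whose gene symbol in the platform annotation is one of these names. That gave 12 probe sets among the 22690 on the array, with at least 1 for each gene. Of the 8 genes, 5 passed an expression filter, which asked for log2 4 on 3 or more of the 6 arrays, and are among the 7644 genes tested. Per1, Cry2 and Nr1d1 did not pass, and their values come from a fit to all probe sets without that filter.

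The series measured gene expression in 3 mouse lung adenocarcinoma cell lines, KPR4, KPR5 and KPR8, of C57/B6-129SvJae background. Each line was measured on 1 array after ethanol, the vehicle, and on 1 array after 4-OH tamoxifen at 250 nM for 24 h, which per the labels restores p53 expression in these cells. The alleles that the 3 lines carry are not given in the sources used here. The labels do not say how the lines relate to each other, so the results speak for these 3 lines only. Treatment p-values set the mean change within lines against the spread of that change over the lines. That spread is moderated towards the spread of other genes. The tests between lines use the same moderated spread.

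The mammalian clock is a loop of transcription and repression that most cells, tumour cells included, can run. CLOCK pairs with BMAL1 (gene Arntl) and activates genes with an E-box in their control regions, among them the Per and Cry genes, whose proteins return to the nucleus and inhibit the pair. The same pair drives Nr1d1 and Nr1d2, which encode the nuclear receptors REV-ERB alpha and beta, repressors of Arntl, and Dbp, which encodes an activator that binds D-box elements. In a dish the cells of a culture drift out of phase unless a stimulus such as fresh serum sets them together. Each condition was sampled at a single time, so neither phase nor amplitude can be read from these arrays.

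Short sequence matches to elements of the loop are shown here. Whether they act on these genes was not tested. The 250 bases before each RefSeq transcript start (build GRCm38.p6) were searched on both strands, in 10 windows for 7 of the 8 genes. The E-box CACGTG was found for Per1 and Cry1, and its variant CACGTT, on either strand, for Cry1, Cry2 and Nr1d1. They occur in 6.02% and 3.85% of all 32841 windows of that length. The D-box TTATGNAA was found for Per1 (3.07% of windows). Clock, Nr1d2 and Dbp had no match, and Per2 had no window. The ROR element TAGGTCA (2.24%) and the p53 half-site (7.13%) were found in 0 of the 10 windows, which says only that these letters are not there. Outside the 8 genes, the search also took in Tef, Timeless, Lpin1, Wee1 and Nampt. An E-box was listed for Tef at a first and a second start, and a D-box for Timeless. No match was listed for Lpin1, Wee1 or Nampt. The windows of these added genes were not counted, so a gene without a match may have had no window. Each match lies upstream of the start of the gene, is given 5′ to 3′ on the strand of the gene, and has the motif in capitals.
Per1 E-box, chr11:69098763-69098808, plus strand: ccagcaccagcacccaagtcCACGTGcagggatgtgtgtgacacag
Per1 D-box, chr11:69098905-69098948, plus strand: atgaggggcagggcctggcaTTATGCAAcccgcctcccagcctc
Cry1 E-box, chr10:85185089-85185134, minus strand: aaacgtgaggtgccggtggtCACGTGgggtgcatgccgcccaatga
Cry1 E-box variant, chr10:85185108-85185153, minus strand: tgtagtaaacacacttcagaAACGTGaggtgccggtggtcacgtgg
Cry2 E-box variant, chr2:92434210-92434255, minus strand: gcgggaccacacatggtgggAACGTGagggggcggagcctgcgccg
Nr1d1 E-box variant, chr11:98775380-98775425, minus strand: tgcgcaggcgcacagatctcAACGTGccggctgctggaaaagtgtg
Tef E-box, first start, chr15:81802526-81802571, plus strand: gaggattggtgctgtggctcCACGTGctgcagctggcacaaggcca
Tef E-box, second start, chr15:81811256-81811301, plus strand: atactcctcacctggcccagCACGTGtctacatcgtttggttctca
Timeless D-box, chr10:128237889-128237936, plus strand: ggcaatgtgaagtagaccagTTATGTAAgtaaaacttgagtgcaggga

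The p53 targets Cdkn1a, Mdm2 and Ccng1 rose by 4.63, 2.94 and 2.86 on the log2 scale with the drug. All 6 epithelial markers were at log2 4 or above on every array. With the drug 3 of the 6 passed the test for a change, beside 19.5% of all tested genes. Cldn4 rose by 0.89 (limma, adjusted p = 0.00318) and Cdh1 by 0.30 (adjusted p = 0.046), and Epcam changed by -0.37 (adjusted p = 0.0462). The 5 lung epithelial markers, Nkx2-1 and Sftpc among them, lay between 2.21 and 3.13, where array controls for bacterial transcripts reached 2.84, so the lung identity in the labels was not visible in these markers. The mean level of the 4 leukocyte markers was 2.92 to 3.00 with ethanol and 3.10 to 3.25 with the drug. Ptprc, the defining gene, read 1.62 to 2.05, Lyz2 2.29 to 2.52 and Cd3e 3.53 to 4.37. The change of Cd3e was -0.15 (limma, adjusted p = 0.566, lower in 2 of 3 lines). Cd68, a macrophage marker of that list, read 3.66, 3.76 and 3.42 with ethanol in KPR4, KPR5 and KPR8. With the drug it read 4.83, 4.75 and 4.32, a change of 1.02 ± 0.15 (limma, adjusted p = 2e-04, higher in 3 of 3 lines). Cd68 reached log2 4 on the drug arrays alone, so it passed the filter only through the group where it is high. In the fit without the filter its adjusted p was 0.000705 (limma). Lyz2 changed by -0.06 in that fit (adjusted p = 0.817). The part of Cd68 in the results was not tested. The mean of the 5 fibroblast markers ran from 4.24 to 4.50 with ethanol and from 4.11 to 4.63 with the drug, and that of the 3 endothelial ones from 3.24 to 3.41 and from 3.19 to 3.34. Single fibroblast markers were higher, with Col1a1 at 5.41 to 7.73 and Col1a2 at 4.51 to 5.59. Of the 3 fibroblast markers tested, 0 passed for a change with the drug, but all 3 differed between lines. Col1a1 (limma F-test, adjusted p = 2.12e-05) and Col1a2 were highest in KPR4, and Pdgfra in KPR5. Whether this bears on line differences of clock genes was not tested.

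None of the 5 measured clock genes passed the test for a change with 4-OH tamoxifen. In limma, with a term for cell line and Benjamini-Hochberg adjustment over 7644 genes at a threshold of 0.05, 0 were higher and 0 lower, where 10.5% of all tested genes were higher and 8.94% lower. At an unadjusted p under 0.05 there was 1, Per2, against 32.7% of all tested genes. The median change of the 5 was -0.02 on the log2 scale, beside 0.0019 over all genes, and the median size of the change without its sign was 0.04 beside 0.21. The 95% interval of each of the 5 lay inside a 2-fold change in both directions. Their bounds were 1.01-fold and 1.73-fold for Per2, and for the other 4 genes ran from 0.722-fold to 1.29-fold of the ethanol level. Each array pools the cells of a culture, so fewer expressing cells and less RNA per cell cannot be told apart.

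**Figure D1:**
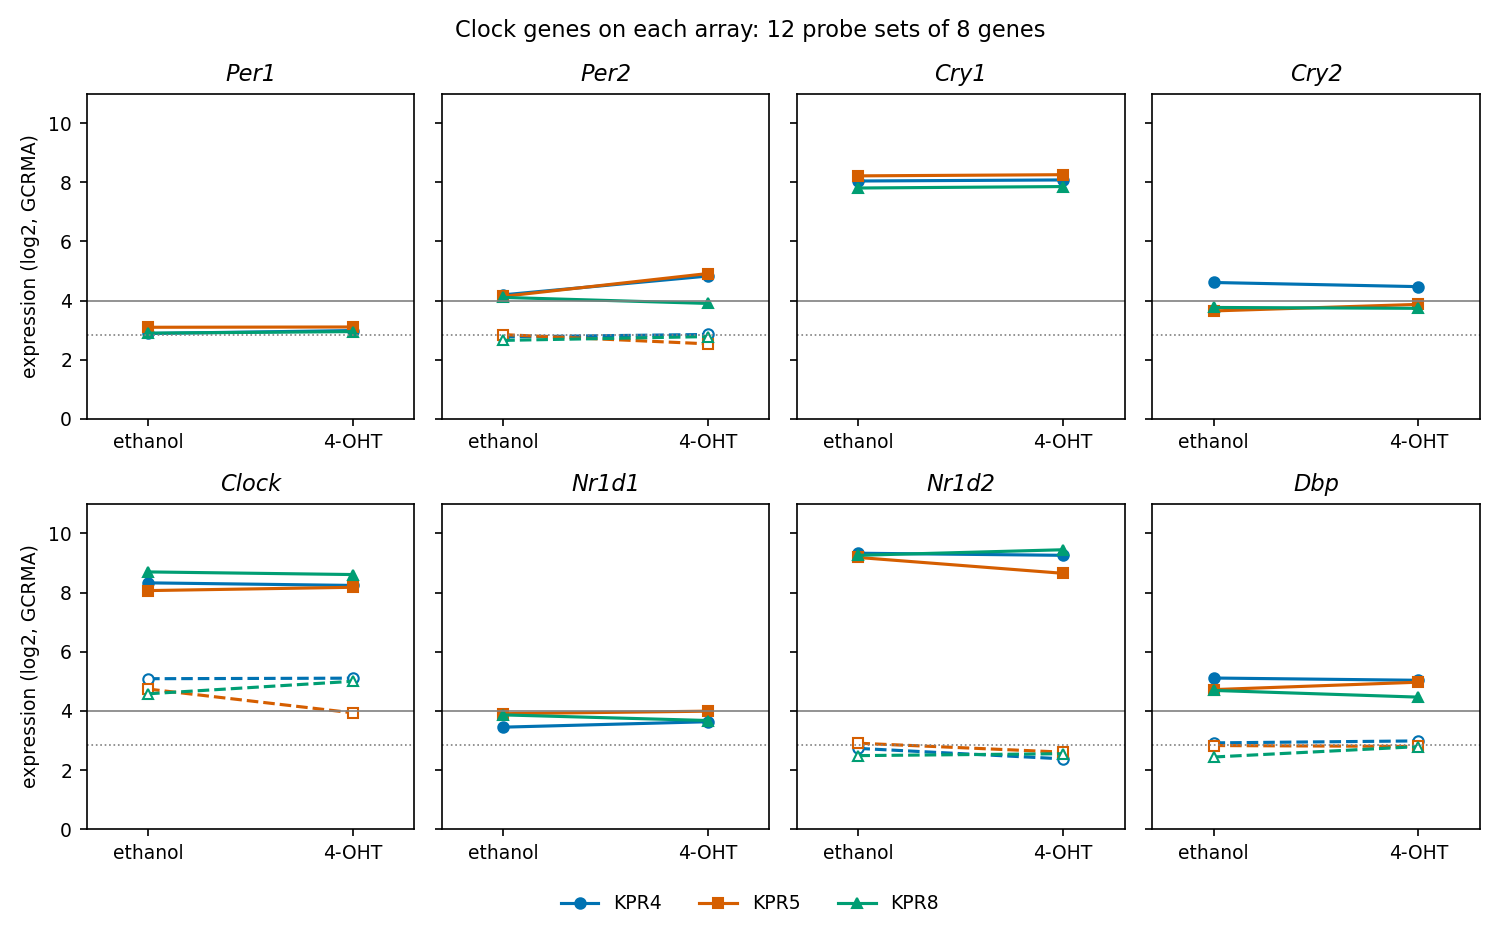
Expression (log2, GCRMA) of the 12 probe sets of the 8 clock genes on each array, with ethanol and 4-OH tamoxifen (4-OHT) values of a line joined. Filled symbols and solid lines are the brightest probe set of a gene, open symbols and dashed lines a dimmer one; the grey line is the filter level of 4 and the dotted line the highest bacterial control, 2.84. Most lines are nearly flat, and Per2 slopes up in KPR4 and KPR5 and down in KPR8.

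Clock, the activator of the loop, read 8.33, 8.06 and 8.70 with ethanol in KPR4, KPR5 and KPR8, and 8.24, 8.18 and 8.61 with the drug. The treatments overlapped, and KPR8 was the highest line under both. The change in the limma fit was -0.02 ± 0.15 (SE, 3 lines; adjusted p = 0.942). A dimmer Clock probe set read 5.09, 4.74 and 4.58 with ethanol and 5.10, 3.93 and just under 5 with the drug. On it KPR5 was lower with the drug by 0.80 and KPR8 higher by 0.42, and the fit to all 22626 probe sets gave -0.12 ± 0.20 (limma, adjusted p = 0.808), where 7.92% of probe sets were called.

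Per2, a repressor of CLOCK and BMAL1, had the largest difference among the 8. In the same order of lines it read 4.19, 4.14 and 4.11 with ethanol and 4.83, 4.91 and 3.90 with the drug. The ethanol arrays were nearly level, and with the drug KPR4 and KPR5 lay above them and KPR8 below. The change was 0.40 ± 0.18 (limma, adjusted p = 0.144, 3 lines), with a positive sign in 2 of 3 lines. The result turned on KPR8. Without that line the change was 0.70 ± 0.17 (limma, adjusted p = 0.0381). It was 0.28 without KPR4 (adjusted p = 0.444) and 0.22 without KPR5 (adjusted p = 0.55). Over the alternatives in which Per2 had a value the adjusted p ran from 0.0381 to 0.699. A second Per2 probe set, at 2.54 to 2.85 on all arrays, the level of the bacterial controls, gave -0.03 ± 0.12 (no filter, limma, adjusted p = 0.915). RNA integrity was followed by the gap between 3' and 5' control probe sets of Gapdh, which differed between drug and ethanol by 0.24, 0.29 and -0.40 in KPR4, KPR5 and KPR8, the same signs as Per2, and that of Actb by 0.16, 0.39 and -0.07. Their part in the Per2 values was not tested.

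Per1, the paralogue that responds fastest to resetting stimuli, was near background on every array. It read 2.89, 3.10 and 2.90 with ethanol and 2.99, 3.11 and 2.95 with the drug. The difference without the filter was 0.05 ± 0.11 (limma, adjusted p = 0.843). At this level a change of the transcript could go unseen.

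Cry1, the stronger repressor of the pair, was the steadiest of the 8. Its values were 8.04, 8.22 and 7.81 with ethanol and 8.08, 8.26 and 7.85 with the drug, a difference of 0.04, 0.04 and 0.05 within the lines. The fit gave 0.04 ± 0.15 (limma, adjusted p = 0.883), where the SE is moderated towards the spread of other genes and is wider than the spread of these 3 differences (SD 0.0067). Cry2 read 4.61, 3.65 and 3.77 with ethanol and 4.47, 3.87 and 3.74 with the drug. It reached log2 4 in KPR4 alone, and the change without the filter was 0.02 ± 0.14 (limma, adjusted p = 0.96).

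Nr1d2, which encodes REV-ERB beta, read 9.33, 9.18 and 9.26 with ethanol and 9.26, 8.65 and 9.45 with the drug. The ethanol arrays lay close together, and KPR5 with the drug stood below the rest. The fitted change was -0.14 ± 0.15 (limma, adjusted p = 0.583). Without KPR5 it was 0.06 (adjusted p = 0.879). A second Nr1d2 probe set was at 2.38 to 2.91, the level of the bacterial controls. Nr1d1, which encodes REV-ERB alpha, read 3.45, 3.90 and 3.86 with ethanol and 3.63, 3.99 and 3.67 with the drug, below the filter on all 6 arrays. Its difference was 0.03 ± 0.13 (no filter, limma, adjusted p = 0.94).

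Dbp, the output activator of the loop, read 5.11, 4.72 and 4.69 with ethanol and 5.03, 4.97 and 4.46 with the drug on its brighter probe set. The arrays overlapped, and the sign was negative in KPR4 and KPR8 and positive in KPR5. The change was -0.02 ± 0.16 (limma, adjusted p = 0.957). The other Dbp probe set, at 2.44 to 2.98, gave 0.13 ± 0.11 (no filter, limma, adjusted p = 0.579). No gene is named as similar in pattern to the 8, since the rule for that applied to those past the threshold.

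**Figure D2:**
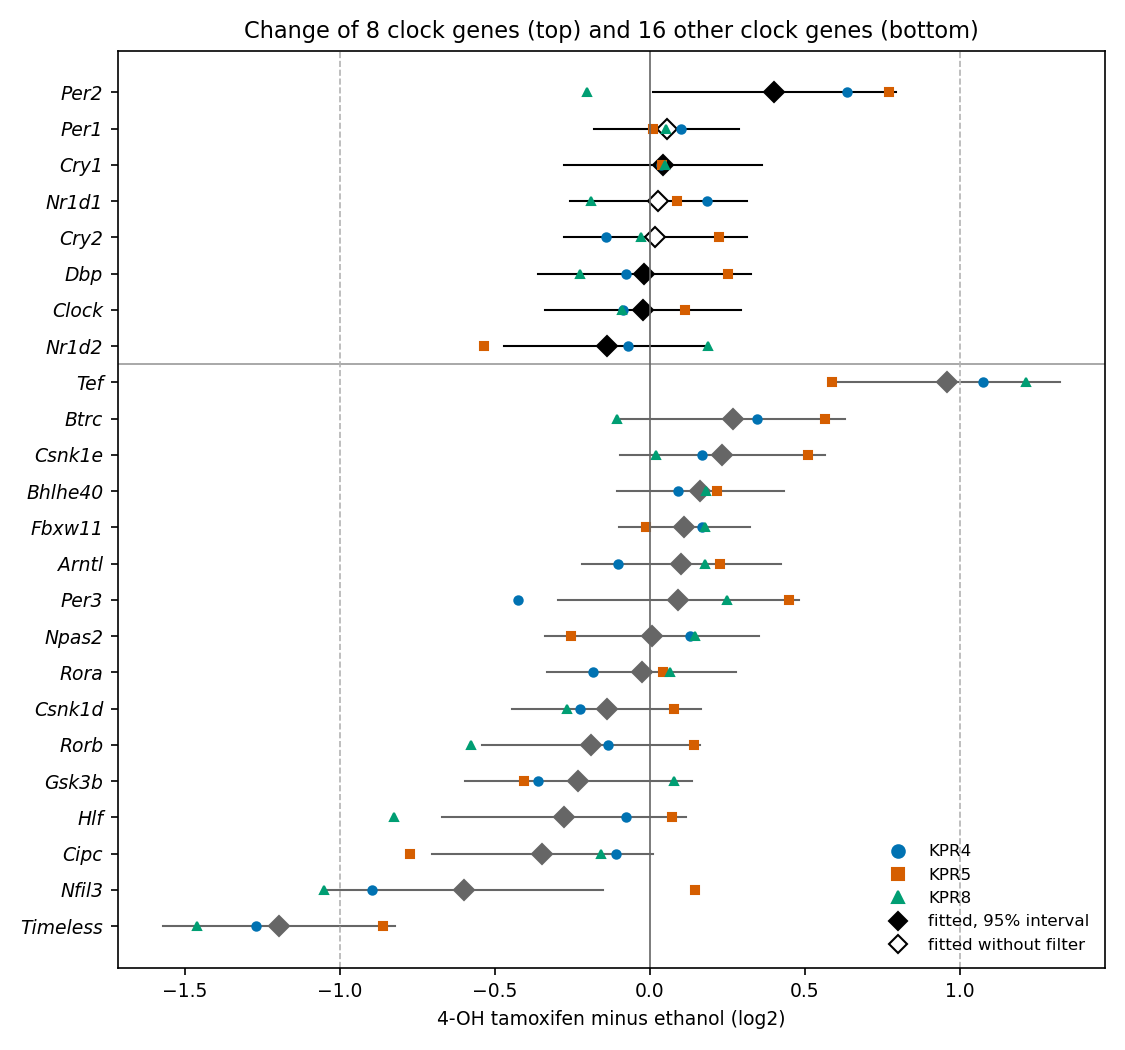
Difference between 4-OH tamoxifen and ethanol (log2) for the 8 clock genes above the line and 16 other clock genes below it. Coloured symbols are single lines, diamonds the limma estimate with its 95% interval, open diamonds the fit without the filter, and dashed verticals a 2-fold change. Intervals of the 8 genes stay within the dashed lines, and only those of Tef, Nfil3 and Timeless among the others exclude 0; Nfil3 had an adjusted p of 0.0582.

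The rest of the circuit was read from a list of 23 other clock genes, of which 19 had a named probe set and 16 passed the filter. Of these 16, 1 rose and 1 fell, together 2, beside a share of 19.5% called over all genes. The median change was -0.01. Arntl, the partner of Clock, read 4.52, 4.45 and 3.86 with ethanol and 4.42, 4.68 and 4.04 with the drug, a change of 0.10 ± 0.15 (limma, adjusted p = 0.695).

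The gene that rose was Tef, which encodes a D-box activator of the same family as DBP. It read 7.19, 7.53 and 6.58 with ethanol and 8.27, 8.12 and 7.79 with the drug. Every drug array lay above every ethanol array, as was the case in 1 direction or the other for 15.7% of tested genes. The change was 0.96 ± 0.17, or 1.94-fold (limma, adjusted p = 0.00112, higher in 3 of 3 lines). On its 2 dimmer probe sets the change was 0.31 (adjusted p = 0.288) and 0.19 (adjusted p = 0.398) without the filter, so the call rests on the brightest one. Hlf, a further member of that family, had a change of -0.28 (adjusted p = 0.329).

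The gene that fell was Timeless, whose mammalian protein acts mainly at replication forks and binds clock proteins. It read 6.39, 6.53 and 6.48 with ethanol and 5.12, 5.67 and 5.02 with the drug, with no overlap. Its level was 2.29-fold lower, a change of -1.20 ± 0.18 (limma, adjusted p = 0.00025, lower in 3 of 3 lines). A dimmer probe set gave -0.57 (no filter, adjusted p = 0.0199). The 4 genes nearest the threshold among the remainder were Nfil3, Cipc, Btrc and Csnk1e. Nfil3, which encodes the D-box repressor E4BP4, read 5.24, 5.50 and 5.99 with ethanol and 4.35, 5.64 and 4.94 with the drug. The drug arrays of KPR4 and KPR8 were below all ethanol arrays and that of KPR5 was not. The change was -0.60 ± 0.21 (limma, adjusted p = 0.0582), and without KPR5 it was -0.97 (adjusted p = 0.00222). Without KPR8 it was -0.37 (adjusted p = 0.382) and without KPR4 -0.45 (adjusted p = 0.22). Cipc, an inhibitor of CLOCK, had -0.35 ± 0.17 (adjusted p = 0.166), Btrc, a ubiquitin ligase subunit that acts on PER proteins, 0.27 ± 0.17 (adjusted p = 0.298), and Csnk1e, a kinase of PER proteins, 0.23 ± 0.16 (adjusted p = 0.327).

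Of 7 genes listed as clock outputs, 4 were measured, and 1 rose and 2 fell, where 10.5% of all tested genes rose and 8.94% fell. Lpin1, a phosphatidate phosphatase, read 6.62, 6.59 and 6.32 with ethanol and 8.48, 7.97 and 7.44 with the drug. The groups did not overlap, and the rise was 1.45 ± 0.18, or 2.74-fold (limma, adjusted p = 5.5e-05), and the other probe set also rose (no filter, adjusted p = 0.00082). Wee1, a kinase that holds back entry into mitosis and has an E-box-driven gene, went from 7.41, 7.54 and 7.95 to 6.98, 6.88 and 7.25. It was lower in 3 of 3 lines, with a change of -0.60 ± 0.16 (limma, adjusted p = 0.0178) and of -0.82 on a dimmer probe set (no filter, adjusted p = 0.0183). The Wee1 call on the brighter probe set ended without KPR5 (adjusted p = 0.0809) or KPR8 (adjusted p = 0.0821). Nampt, of NAD salvage, had -0.49 ± 0.16 (limma, adjusted p = 0.0449, lower in 3 of 3 lines), and its call ended without any 1 line (adjusted p = 0.0833 to 0.281) and in the fit to all probe sets without the filter (adjusted p = 0.0895). A dimmer Nampt probe set, at 2.47 to 3.02, gave -0.29 (no filter, limma, adjusted p = 0.2) and was higher in KPR8 by 0.06.

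Genes of acute serum, cAMP and glucocorticoid responses were followed because such stimuli induce Per1 and reset the clock. All 8 were measured, and 1 rose and 1 fell, together 2 of 8 beside the 19.5% called over all genes, with a median change of 0.22. At an unadjusted p under 0.05 there were 5 of 8, beside 32.7% of all tested genes. Those 5 included 3 immediate early genes that did not pass after adjustment. Fos had a change of 0.48 ± 0.19 (limma, adjusted p = 0.0941), Egr1 of 0.42 ± 0.15 (adjusted p = 0.0571) and Nr4a1 of 0.42 ± 0.19 (adjusted p = 0.126). The size of the change was uneven over the lines, since Fos had only 0.0045 in KPR5, and Nr4a1 had 1.03 in that line but 0.19 in KPR4 and 0.04 in KPR8. Crem, a regulator of cAMP-responsive genes, read 4.23, 3.23 and 3.97 with ethanol and 4.57, 4.46 and 5.04 with the drug. All drug arrays were above the ethanol arrays, and the change was 0.89 ± 0.18 (limma, adjusted p = 0.00245), or adjusted p = 0.0677 without KPR8. With ethanol only KPR4 reached log2 4, so Crem passed the filter through the drug arrays, the group where it is high. In the fit without the filter the adjusted p was 0.00835 (limma). Dimmer Crem probe sets gave 0.33 (adjusted p = 0.196) and 0.06 (adjusted p = 0.857). Fkbp5, a co-chaperone induced by glucocorticoids, read 6.97, 6.54 and 6.30 with ethanol and 5.98, 5.66 and 5.36 with the drug. It was lower by a similar amount in each line, with a change of -0.94 ± 0.16 (limma, adjusted p = 0.00101).

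**Figure D3:**
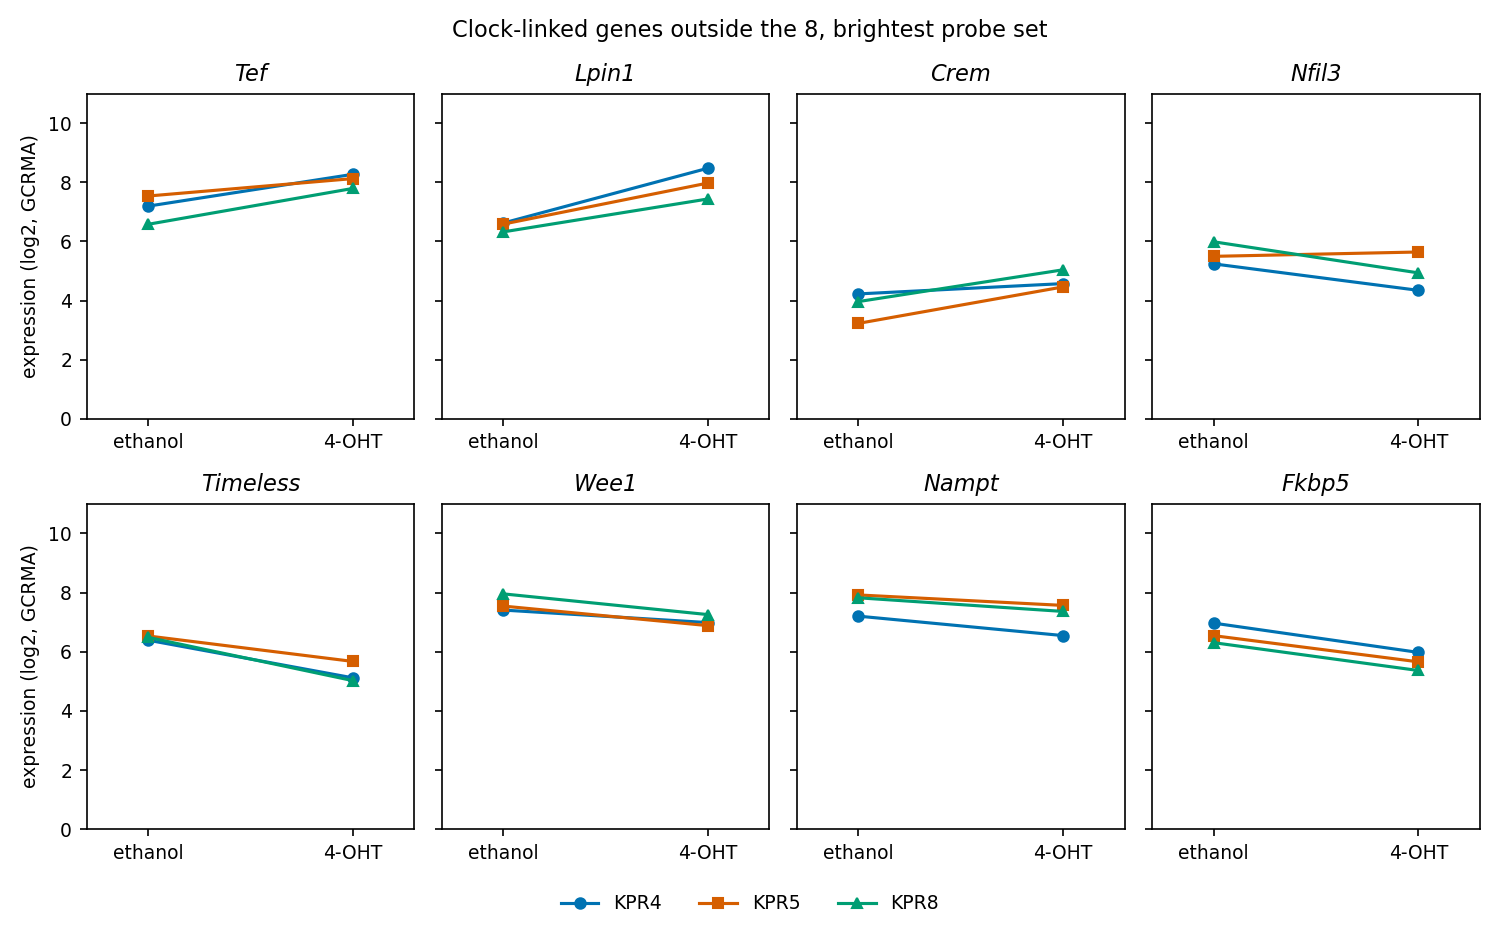
Expression (log2, GCRMA) of 8 clock-linked genes outside the clock set, brightest probe set, with the ethanol and 4-OH tamoxifen (4-OHT) arrays of a line joined. Tef, Lpin1 and Crem slope up and Timeless, Wee1, Nampt and Fkbp5 slope down in all 3 lines, and Nfil3 slopes down in KPR4 and KPR8 alone.

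The clock genes were also compared between the lines. Of the 5 measured, 0 passed limma's F-test over the lines (1 at an unadjusted p under 0.05, Clock), where 42.0% of all tested genes did. Clock came nearest, with KPR8 highest at a line mean of 8.65, then KPR4 at 8.28 and KPR5 at 8.12 (adjusted p = 0.0651 for the F-test). Between KPR8 and KPR5 it differed by 0.53 ± 0.18 (adjusted p = 0.0529; 19.2% of genes were called), and neighbours in that order did not pass (adjusted p = 0.14 and 0.549). Clock passed the F-test after quantile normalization (adjusted p = 0.0483) or median centring (adjusted p = 0.0438). The dimmer Clock probe set gave another order, with line means of 5.09 in KPR4, 4.79 in KPR8 and 4.33 in KPR5 (F-test without the filter, adjusted p = 0.0976), so that KPR8 minus KPR4 was -0.31 on it and 0.37 on the brighter one. Per2 was lower in KPR8 by 0.51 ± 0.23 than in KPR4 and by 0.52 ± 0.23 than in KPR5 (adjusted p = 0.103 and 0.116, beside 30.3% and 19.2% of genes called in these contrasts), and that gap was present on the drug arrays rather than on the ethanol ones. Line means ran from 7.83 in KPR8 to 8.24 in KPR5 for Cry1 (F-test, adjusted p = 0.189), from 8.92 in KPR5 to 9.35 in KPR8 for Nr1d2 (adjusted p = 0.132), and from 4.58 in KPR8 to 5.07 in KPR4 for Dbp (adjusted p = 0.13).

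Cry2 was the clock gene that stood apart by line in the fit without the filter. Its line mean was 4.54 in KPR4, 3.76 in KPR5 and 3.75 in KPR8 (F-test, adjusted p = 0.00623, where 24.2% of probe sets were called). KPR4 was above KPR5 by 0.78 ± 0.17 (adjusted p = 0.00784) and above KPR8 by 0.79 ± 0.17 (adjusted p = 0.00635), on both treatments. The lines KPR5 and KPR8 differed by 0.01 ± 0.17. Levels in those lines are between the bacterial controls and the filter, so the size of the gap is approximate. Line means of Per1 ran from 2.93 to 3.10 and those of Nr1d1 from 3.54 to 3.95, with F-test adjusted p-values of 0.513 and 0.179.

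Among the 16 other clock genes 7 differed between lines, a share near the 42.0% of all genes. Bhlhe40, an E-box repressor, was lowest in KPR4 (line mean 9.29, against 10.05 and 9.86; F-test, adjusted p = 0.00349). Csnk1e was also lowest there (3.87, against 4.82 and 4.28; adjusted p = 0.00379), as was Cipc (7.66, against 8.20 and 8.79; adjusted p = 0.00193). Arntl was lowest in KPR8 (3.95, against 4.47 in KPR4 and 4.56 in KPR5; adjusted p = 0.0283), and Hlf was highest there (5.52, against 4.61 in both others; adjusted p = 0.00616). Tef and Nfil3 passed as well, with adjusted p-values of 0.0408 and 0.0445. The order of Hlf rests on its brighter probe set, where KPR8 read 5.93 on the ethanol array and 5.11 on the drug array. A dimmer Hlf probe set did not show it (F-test without the filter, adjusted p = 0.537). There KPR4 was highest at 4.27 (ethanol) and 4.18 (drug), beside 4.13 and 4.15 for KPR8 and 3.82 and 4.14 for KPR5.

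**Figure D4:**
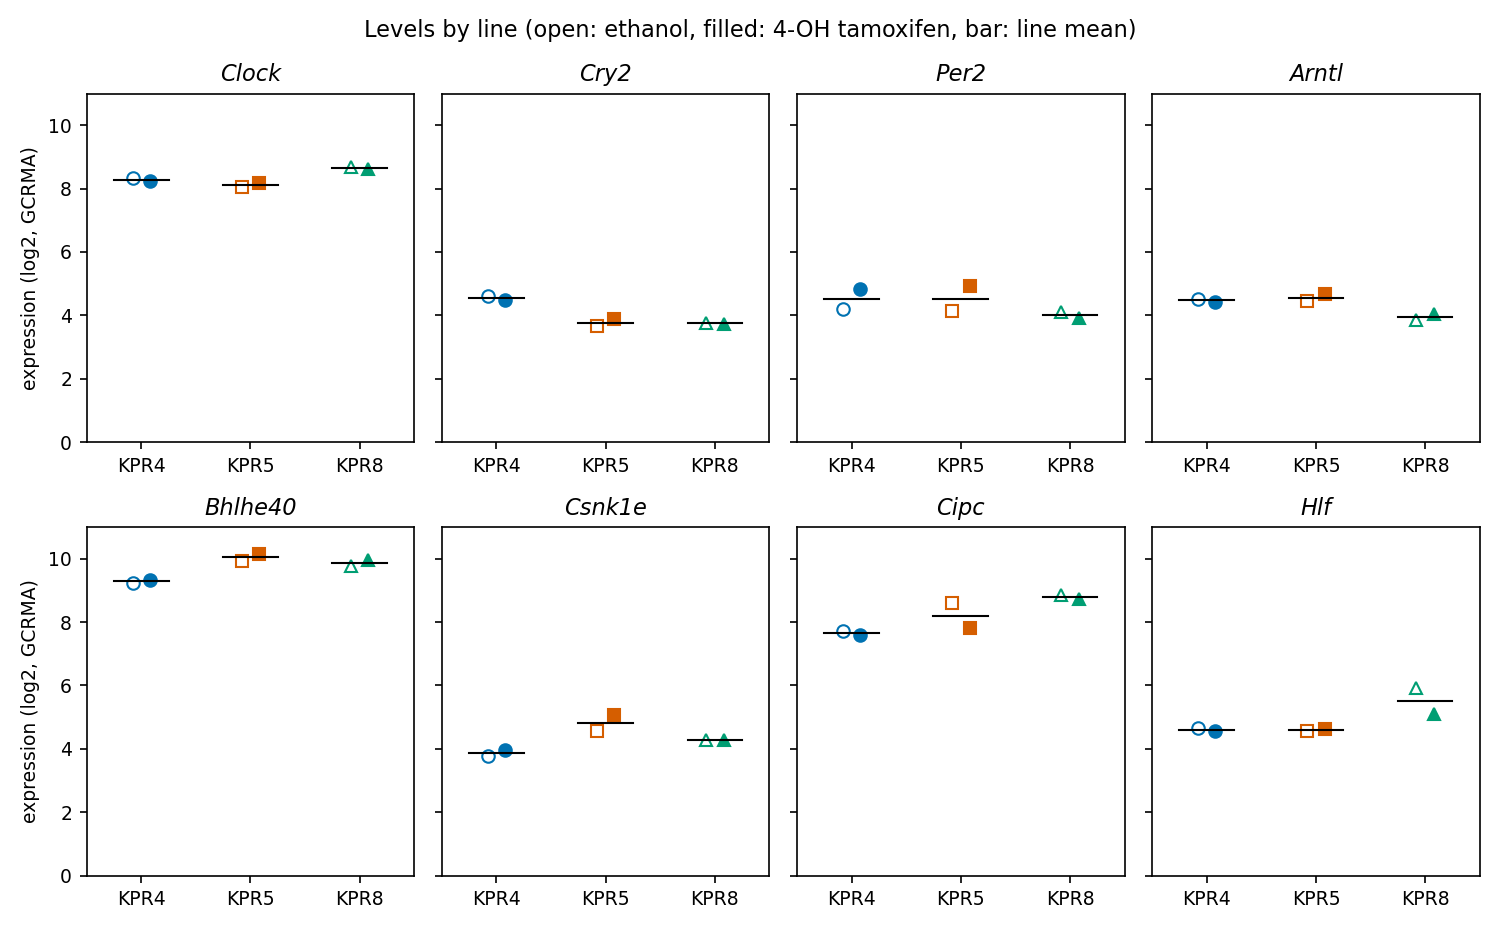
Expression (log2, GCRMA) by line for 3 of the clock genes and 5 other clock genes; open symbols are ethanol arrays, filled symbols 4-OH tamoxifen arrays, and bars the mean of both. Cry2 is higher in KPR4 on both arrays, whereas the Per2 arrays differ between lines with the drug and lie together with ethanol.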

How the data were processed

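The table holds log2 expression per probe set, deposited by the authors, whose processing notes name GCRMA 2.20.0 and R 2.11.0. That method subtracts a modelled background and equalises the arrays: their medians lay between 4.56 and 4.63, so a change shared by most genes would be hidden. RNA (100 ng) was amplified and labelled with biotin, per the labels. Probe sets were named from GEO's platform annotation, and 20351 of 20380 carrying 1 symbol had their Entrez identifier in the RefSeq table of GRCm38.p6, with 0 symbols altered. A gene was represented by its brightest probe set past the filter; no scanner files or detection calls were used.

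The treatment test used limma 3.58.1 (R 4.3.3), with terms for line and treatment, a trend in the variance prior (12.9 prior degrees of freedom beside 2 residual ones) and 2-sided p-values. Values after ± are standard errors of that fit and use the moderated spread. The line term pairs the arrays, since each line had both treatments; deviations from the group means correlated at 0.876, 0.737 and 0.761 within KPR4, KPR5 and KPR8. Whether lines respond differently could not be tested, as each condition of a line has 1 array, and the number of arrays limits the precision. The fit without a filter took all 22626 probe sets that are not array controls. The 8 genes, the lists and the settings were chosen with earlier results of these data known. Named beyond the 8 are other clock genes past the threshold and the 4 nearest it, outputs and inputs past the threshold, and 3 p53 targets. Genes named for line differences, single cell type markers such as Cd68, and Arntl, Hlf, Fos, Egr1, Nr4a1, Tsc22d3 and Sgk1 were chosen after values were seen.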

Additional observations from a re-analysis of the deposited data

Results flagged for a closer look

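Of the 33 measured genes among the clock genes, the other clock genes, the outputs and the inputs, 9 moved in opposite ways between lines with the drug and had changes at least log2 0.5 apart, a size set after the values were seen. With 1 pair of arrays per line, these differences were not tested. The share of all tested genes that meet the same rule was not counted, so 9 of 33 cannot be called many or few. The range of the change over the lines was 0.98 for Per2 (KPR4 0.64, KPR5 0.77, KPR8 -0.20) and, with lines ordered alike, 0.72 for Nr1d2 (-0.07, -0.54 and 0.19). Among the other clock genes it was 1.198 for Nfil3 (-0.90, 0.15 and -1.05), 0.90 for Hlf (-0.08, 0.07 and -0.82), 0.87 for Per3 (-0.43, 0.45 and 0.25), 0.72 for Rorb (-0.14, 0.14 and -0.58) and 0.67 for Btrc (0.35, 0.56 and -0.11). For the output Alas1 it was 0.57 (-0.12, 0.35 and -0.22), whereas a dimmer Alas1 probe set was higher in 3 of 3 lines, by 0.25, 0.87 and 0.44. For the input Sgk1 it was 0.55 (-0.12, -0.18 and 0.37).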

How the results depend on the processing

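Without the replicate block (no line term), limma called 0 of the 16 other clock genes higher and 0 lower: the adjusted p became 0.3 for Tef and 0.108 for Timeless, and likewise Lpin1, Wee1, Nampt, Crem and Fkbp5 lost their calls. Without it 22 genes were higher and 1 lower over all, against 805 and 683. With 1 line left out, the count of the 5 measured clock genes called higher ran from 0 to 1 (Per2, without KPR8) and of other clock genes lower from 1 to 2 (Nfil3 added, without KPR5). The count of clock genes called lower was 0 in each setting. The count that differed between lines was 1 without the filter (Cry2, in a fit with 1 probe set for each of 12393 genes), 1 after quantile normalization and 1 after median centring (Clock in both). With 1 line left out, 3 changes turned sign: that of Clock was 0.012 without KPR4 and 0.012 without KPR8, that of Nr1d2 0.059 without KPR5, and that of Dbp 0.012 without KPR4 and 0.087 without KPR8, all with an adjusted p above the threshold. The call of Nampt ended with the mean of its probe sets (adjusted p = 0.0633) and in that fit of 12393 genes (adjusted p = 0.0723). Per2 and Dbp did not pass the stricter filter (log2 6), nor the filter on the mean of their probe sets, and have no value in either setting. The median change of all genes moved by less than 0.1 in every setting. Leaving out a line kept the genes of the full fit. Per1, Cry2 and Nr1d1 lie close to background, which limits what these arrays can show of them.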
